A study of Mus musculus with 4 samples.

Results

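The proteasome subunit genes were followed on 4 Affymetrix mouse arrays of myeloid-derived suppressor cells (MDSCs), immature myeloid cells that suppress T cells. The members are the genes whose symbol begins with Psma, Psmb, Psmc, Psmd or Psme and ends in a number. Of 43 such genes in the RefSeq gene table, 42 had a probe set annotated to that gene alone, among 18194 genes measured in this way. Psme2 is annotated only together with Psme2b and is not analysed here. The choice of members used no measured value.

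All 4 cultures were started from fresh bone marrow cells of C57BL/6 mice, infected with a lentivirus and grown for 4 days with GM-CSF and IL6. Cells of kdNC carried a control shRNA lentivirus and those of kdLNC a lentivirus with an shRNA against the long noncoding RNA lnc-C/EBPβ, which the labels call lncMDSC. Cells of oeNC carried the control lentivirus for overexpression and those of oeLNC the lentivirus that overexpresses lncMDSC. Each group was 1 array, so no difference has a replicate check and no test could be made. The sources used here do not say how many animals gave the marrow, which promoter drove the transgene, or the age of the mice. No probe set under the name of lnc-C/EBPβ was used, so whether the RNA was lowered or raised in these cultures was not checked here.

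The proteasome is the chamber in which cells cut proteins that carry ubiquitin chains. Its core is a barrel of beta rings capped by alpha rings, and a subset of the beta subunits does the cutting. A regulatory particle on the end of the barrel holds a ring of ATPases that unfolds the protein and threads it in, and non-ATPase subunits that bind and remove ubiquitin. In cells exposed to interferon, the catalytic subunits encoded by Psmb8, Psmb9 and Psmb10 take the places of those encoded by Psmb5, Psmb6 and Psmb7, and the core is then called the immunoproteasome, known for making peptides that fit MHC class I. Haematopoietic cells often express it without added interferon.

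Levels are the log2 of the deposited intensity, on which 1 unit is a factor of 2, and each gene is read at its brightest probe set over the 4 arrays, its representing probe set. A member was counted as different when the arrays differed by at least 1.5-fold, a log2 difference of 0.585. The background is the 11345 genes whose mean level lay above the 50th percentile of all probe sets (4.20), and 40 of the 42 members lay above it. As a yardstick, the SD of oeNC minus kdNC over the 500 genes nearest in level was 0.46 to 0.63 for these 40 members. Lentivirus, culture and array all enter that yardstick, and it does not stand for the error between replicates.

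Most proteasome genes differed by less than 1.5-fold between any 2 arrays. The median difference of the 42 members was 0.06 in kdLNC minus kdNC, where the median of all background genes was -0.05. It was 0.06 in oeLNC minus oeNC, with -0.02 over the background genes. Between the control arrays, oeNC minus kdNC, it was -0.09, with -0.04 over the background genes. The range over the 4 arrays was under 1.5-fold for 34 of the 40 members above the filter (85%), and for 61.5% of the background genes. The smallest range was that of Psma3, an alpha ring subunit, at 0.09. The exceptions were Psmc4, an ATPase of the regulatory particle, at 1 of its probe sets, and a small set of genes that were lowest on oeNC.

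**Figure D1:**
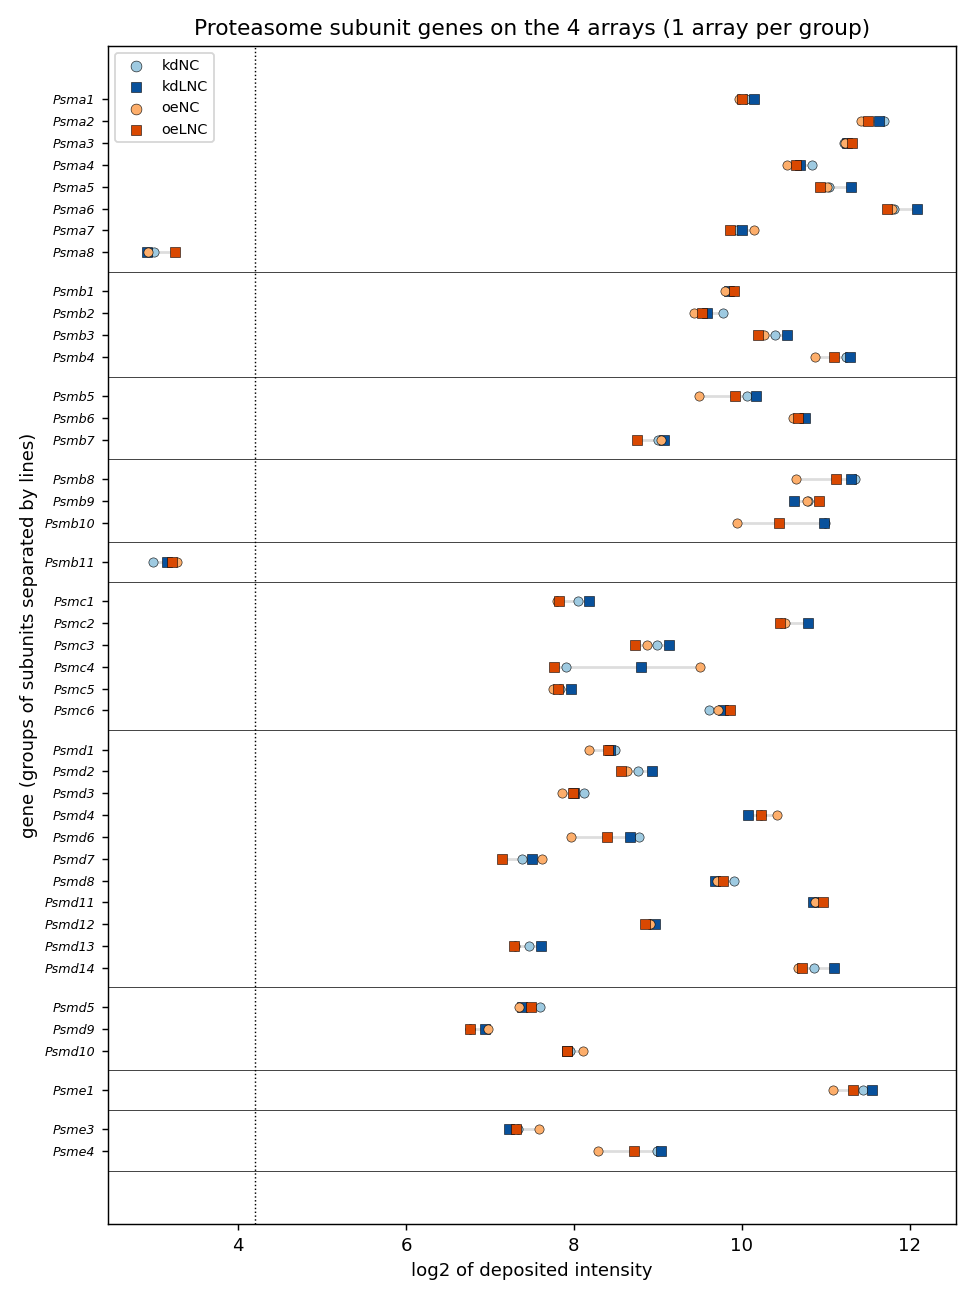
Level of each of the 42 proteasome subunit genes on each array (x axis, log2 of the deposited intensity; y axis, genes, from top to bottom the alpha ring, structural, constitutive catalytic, immunoproteasome and thymoproteasome beta subunits, ATPases, non-ATPases and chaperones of the regulatory particle, the interferon-inducible activator and the nuclear activators). Points are single arrays, the grey line spans a gene's range, and the dotted line is the filter at 4.20. Psma8 and Psmb11 lie below the filter, and Psmc4, Psmb10, Psmd6, Psme4 and Psmb8 have the widest ranges.

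Of the 42 members, kdLNC was at least 1.5-fold above kdNC for 1 (2.25% of background genes were) and at least 1.5-fold below it for 0 (1.84%). In oeLNC, 0 were at least 1.5-fold higher than in oeNC (3.23%) and 1 was at least 1.5-fold lower (5.26%). Between the control arrays, 1 member was at least 1.5-fold higher in oeNC (9.09%) and 4 were at least 1.5-fold lower (12.2%). At 2-fold, 0 members differed in the knockdown pair (0.802% of background genes did), 1 in the overexpression pair (0.987%) and 2 between the control arrays (6.92%). The overexpression pair and the control pair share oeNC, and the knockdown pair and the control pair share kdNC, so a high or low value on a control array enters both. No test of any of these counts was possible with 1 array per group.

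**Figure D2:**
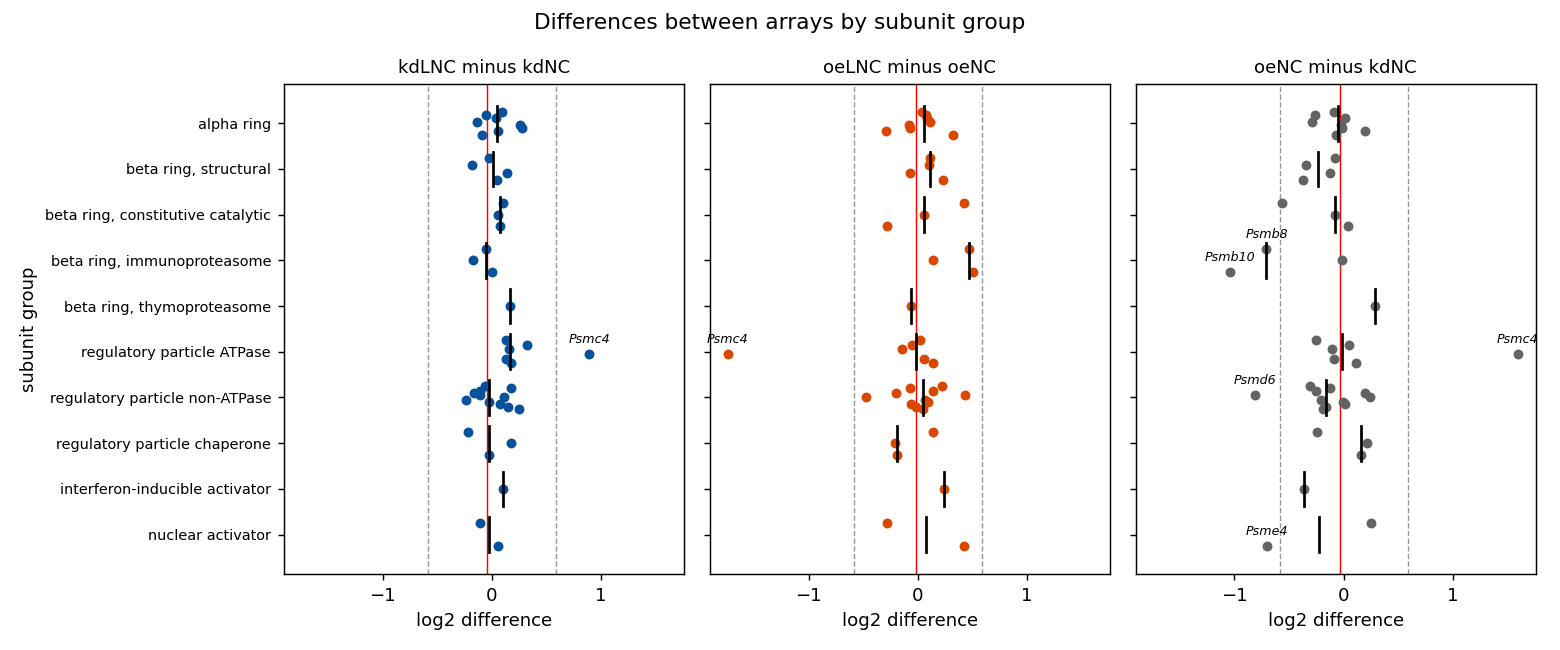
Log2 differences (x axis) of the 42 members by subunit group (y axis) in the knockdown pair, the overexpression pair and between the control arrays. Points are genes, black bars are group medians, dashed lines mark 1.5-fold and the red line is the median of the background genes. Psmc4 is the only labelled gene in the first 2 panels, and Psmb8, Psmb10, Psmd6 and Psme4 lie beyond the lower line in the third.

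The immunoproteasome subunits had medians of 0.47 in the overexpression pair, -0.71 between the control arrays and -0.05 in the knockdown pair at their representing probe sets. With all probe sets of a gene averaged, these medians were 0.14, -0.18 and -0.0023. With the mean of both controls, the first was 0.12 and that of the knockdown pair 0.30. Psmb10, whose product takes the place of that of Psmb7, had log2 levels of 10.99 in kdNC and 10.98 in kdLNC, and 9.94 in oeNC and 10.45 in oeLNC. Both knockdown arrays were nearly equal, oeNC was the lowest by 2.06-fold against kdNC, and oeLNC lay between oeNC and the knockdown arrays, 1.42-fold above oeNC. Psmb8, whose product replaces that of Psmb5, had levels of 11.35, 11.30, 10.65 and 11.12 on the same arrays. The order of the arrays was that of Psmb10, with oeNC 1.63-fold below kdNC and oeLNC 1.39-fold above oeNC. A second, dimmer probe set of Psmb8, at 5.53, 6.30, 5.89 and 5.19, did not have this order, with oeNC 0.36 above kdNC and oeLNC at -0.69 against oeNC. Psmb9, whose product replaces that of Psmb6, had levels of 10.79, 10.62, 10.78 and 10.92, and no pair of arrays was 1.5-fold apart. The oeNC array was not low for Psmb9, which differed from kdNC by -0.01 there.

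At their representing probe sets all 3 immunoproteasome genes were higher in oeLNC than in oeNC, by 0.51 (Psmb10), 0.47 (Psmb8) and 0.14 (Psmb9). This held under each of the 3 rescalings tried, which read the same probe sets. Of the 11345 background genes, 5331 were above 0 in oeLNC minus oeNC. The second probe set of Psmb8 was lower in oeLNC, at -0.69. At the representing ones none of the 3 genes reached 1.5-fold, and the yardstick at their level was 0.50 to 0.52. In the knockdown pair the differences at these probe sets were 0.00, -0.05 and -0.17, all within the yardstick. Against kdNC in place of oeNC, the levels of Psmb10 and Psmb8 in oeLNC were lower and not higher, as the levels above show. Whether oeNC is low or the other 3 arrays are high cannot be told apart with 1 array per group.

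The promoters of these 3 genes are given because the genes share induction by interferon but differed here. Psmb9 and Psmb8 are neighbours on chromosome 17, in the order Psmb9, Tap1, Psmb8, Tap2 in the RefSeq table, while Psmb10 lies on chromosome 8. Each sequence is the 250 bases before the gene start in RefSeq's table for GRCm38.p6, 5′ to 3′ on the strand of the gene, at chr17:34197945-34198194 (+), chr17:34187331-34187580 (-) and chr8:105938393-105938642 (-). Capitals mark a match to any of the 5 motifs searched on both strands, namely CCAAT (the CCAAT box), GAAANNGAA (as in interferon-stimulated response elements), TTCNNNGAA (as in gamma-interferon-activated sites), TGANNNNGC (as in antioxidant response elements) and TGACTCAGC, which is one form of TGANNNNGC and overlaps it.
Psmb8: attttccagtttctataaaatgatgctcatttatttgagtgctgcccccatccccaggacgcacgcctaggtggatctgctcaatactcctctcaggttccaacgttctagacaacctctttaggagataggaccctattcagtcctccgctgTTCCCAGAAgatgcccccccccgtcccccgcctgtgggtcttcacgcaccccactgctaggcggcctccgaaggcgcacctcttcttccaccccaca
Psmb9: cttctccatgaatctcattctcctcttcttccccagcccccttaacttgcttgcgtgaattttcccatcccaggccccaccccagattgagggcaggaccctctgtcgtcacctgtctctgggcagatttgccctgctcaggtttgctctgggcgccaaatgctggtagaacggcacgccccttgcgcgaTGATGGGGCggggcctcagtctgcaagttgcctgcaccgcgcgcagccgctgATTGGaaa
Psmb10: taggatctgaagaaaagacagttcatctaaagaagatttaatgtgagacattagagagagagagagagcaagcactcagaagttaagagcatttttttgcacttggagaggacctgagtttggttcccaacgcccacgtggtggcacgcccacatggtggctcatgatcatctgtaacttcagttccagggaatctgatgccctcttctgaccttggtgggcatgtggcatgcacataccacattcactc

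The window of Psmb8 held TTCNNNGAA, beginning 97 bases before the start, that of Psmb9 held TGANNNNGC at 60 and CCAAT, on the other strand, at 8 bases before the start, and that of Psmb10 held no match. Of the 43 genes, 36 had 39 such windows in the table, and Psma8, Psmb1, Psmb2, Psmb7, Psmc3, Psmd3 and Psmd7 had none. CCAAT was in 14 of the 39 windows and in 33.8% of all 32851 windows, and TGANNNNGC in 15 and in 35.2%. GAAANNGAA was in 3 (Psmb3, Psmd4 and Psmd9) and in 7.13% of all, TTCNNNGAA in 1 and in 7.02%, and TGACTCAGC in 0 and in 0.39%. These matches describe letters in the windows, and no binding was measured.

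The constitutive catalytic subunits did not share 1 pattern. Psmb5 had levels of 10.06 in kdNC and 10.17 in kdLNC, and 9.49 in oeNC and 9.92 in oeLNC. It was lowest in oeNC, as Psmb8 was at its representing probe set. At -0.57 against kdNC it was just short of 1.5-fold, and past it after a further quantile normalization. Psmb6 had levels of 10.70, 10.75, 10.61 and 10.67, with all 4 arrays within 0.13. Psmb7 had levels of 9.0, 9.08, 9.04 and 8.76, with oeLNC the lowest.

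The change of each immunoproteasome gene was set against that of the gene it replaces, since levels of different probe sets cannot be compared. At their representing probe sets Psmb8 and Psmb5 ran side by side. Psmb8 minus Psmb5 was -0.16 in the knockdown pair, 0.05 in the overexpression pair and -0.14 between the control arrays. The second probe set of Psmb8 did not run with Psmb5. It was at 0.77, -0.69 and 0.36 in the same order, where Psmb5 was at 0.11, 0.43 and -0.57. Psmb9 minus Psmb6 was -0.22, 0.09 and 0.07. Psmb10 and Psmb7 parted, at -0.08, 0.79 and -1.09. The latter 2 differences share the oeNC array, where Psmb10 was low and Psmb7 was not, and Psmb7 itself was at -0.28 in oeLNC minus oeNC.

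**Figure D3:**
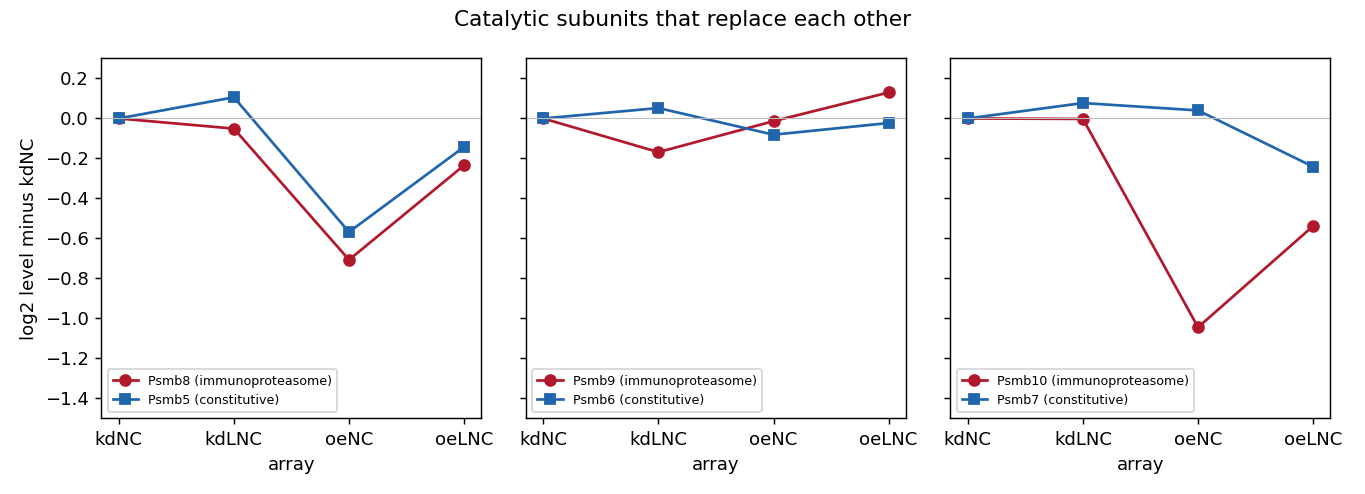
Levels of the catalytic subunit genes relative to kdNC (y axis, log2 level minus that of kdNC; x axis, array), with each immunoproteasome gene (circles) beside the gene whose product it replaces (squares); lines join the values of 1 gene. Genes are shown at their representing probe sets, and the second probe set of Psmb8, not shown, was at 0.36 on oeNC. Psmb8 and Psmb5 are both low on oeNC (-0.71 and -0.57), and Psmb9 and Psmb6 stay within 0.17 of kdNC. Psmb10 is low on oeNC (-1.04) while Psmb7 is not (0.04).

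The structural beta subunits, which shape the ring and do not cut, were all lower in oeNC than in kdNC at their representing probe sets, from -0.37 (Psmb4) to -0.08 (Psmb1), with a median of -0.24, also after rescaling. The second probe set of Psmb4 did not bear this out, at 0.90. Psmb1 was at -0.09 at its second probe set and at 0.34 at its dimmest, and Psmb3 at -0.14 at its second. With all probe sets of a gene averaged the median was -0.04. Their medians in the knockdown and overexpression pairs were 0.01 and 0.11. The alpha ring genes, whose products form the gate of the barrel, had medians of 0.05, 0.06 and -0.05 in the knockdown, overexpression and control comparisons, and no member reached 1.5-fold. Psma6 held the highest level read at a representing probe set, 12.09 in kdLNC, and was 0.27 higher there than in kdNC. Psma8, a testis form of an alpha subunit, lay at 2.91 to 3.25, and Psmb11, the catalytic subunit of thymus epithelium, at 2.98 to 3.27. Both were below the filter, so no order of the arrays is read for them.

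The ATPase ring of the regulatory particle held the only member that was called in each of the 3 comparisons. Psmc4, an ATPase of that ring, had levels of 7.91 in kdNC and 8.80 in kdLNC, and 9.50 in oeNC and 7.77 in oeLNC at its representing probe set. The lowest arrays were oeLNC and kdNC, and oeNC was the highest, 3.01-fold above kdNC and 3.33-fold above oeLNC, with kdLNC 1.86-fold above kdNC. Its second probe set, close in level, gave 7.76, 7.87, 7.75 and 7.62, and no pair of arrays was 1.5-fold apart. The differences there were 0.11, -0.13 and -0.01 in place of 0.89, -1.74 and 1.59. The representing probe set has the suffix _a_at, by which the maker marks probes shared by several transcripts of a gene, and whether the 2 probe sets read different transcripts was not tested.

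The other ATPase genes lay close together. At their representing probe sets all 6 ATPase genes were higher in kdLNC than in kdNC, by 0.13 to 0.89 with a median of 0.16, also under each of the 3 rescalings, while 4623 of the 11345 background genes were above 0. The 5 other than Psmc4 reached 0.32 at most (Psmc2), within the yardstick of 0.50, and the second probe set of Psmc2, which is read when probe sets ending in _x_at are left out, gave -0.0083. In the overexpression pair 3 of the 6 were above 0 (1 after median centring), with a median of -0.02.

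Among the 11 non-ATPase genes, medians were -0.02, 0.05 and -0.16 in the knockdown, overexpression and control comparisons. Psmd6, a scaffold subunit, had levels of 8.77 in kdNC and 8.67 in kdLNC, and 7.96 in oeNC and 8.39 in oeLNC. It was lowest in oeNC, 1.76-fold below kdNC, with oeLNC between. Its second probe set gave 7.47, 8.31, 7.76 and 7.38, so that kdLNC was the highest array there and oeNC minus kdNC was 0.30. Psmd7, a partner of the deubiquitinating subunit, had levels of 7.38, 7.49, 7.62 and 7.15, with oeLNC -0.48 against oeNC and 0.30 at a second, dimmer probe set. Psmd14, the deubiquitinating subunit itself, had levels of 10.86, 11.10, 10.67 and 10.71, with all arrays within 1.5-fold. The chaperones of the regulatory particle, Psmd5, Psmd9 and Psmd10, had differences of -0.25 to 0.21 in all 3 comparisons.

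The activators cap the core in place of the regulatory particle. Psme1, which forms the interferon-inducible cap together with the product of Psme2, had levels of 11.45 in kdNC and 11.55 in kdLNC, and 11.09 in oeNC and 11.32 in oeLNC. It was lowest in oeNC, by 0.36 against kdNC, short of 1.5-fold. Psme3, a nuclear activator, had levels of 7.33, 7.22, 7.59 and 7.31, with oeNC the highest. Psme4, the large nuclear activator that acts on acetylated histones, had levels of 8.99, 9.04, 8.28 and 8.71, with oeNC 1.63-fold below kdNC and oeLNC between. Its second probe set, at 8.15, 8.01, 7.49 and 7.90, kept this order of the oe arrays, with -0.66 and 0.41 for oeNC minus kdNC and oeLNC minus oeNC, where the first gave -0.70 and 0.43. Over its 6 probe sets, oeNC minus kdNC ran from -0.70 to 0.36, and their mean did not reach 1.5-fold.

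Of the 40 members above the filter, 19 had their lowest level on oeNC (47.5%), 13 on oeLNC, 5 on kdLNC and 3 on kdNC. Over the background genes, oeNC was the lowest array for 27.7%. For 18 of these 19 members oeLNC lay below kdNC as well, so that it was between both control arrays. No background share was counted for these 18 or for the other arrays. These counts were not repeated after rescaling, and the median over all probe sets was lowest on oeNC, at 4.17, and highest on oeLNC, at 4.24. In oeNC minus kdNC, 12 of the 40 representing probe sets were above 0, with a median of -0.10. Of the 30 other member probe sets above the filter 15 were, with a median of 0.01. Beyond the yardstick in oeNC minus kdNC were 6 members, of which Psmb10, Psmb8, Psmd6, Psme4 and Psmb5 were lower and Psmc4 higher. In each of the other comparisons 1 member, Psmc4, was beyond it. The yardstick is the SD of oeNC minus kdNC itself, so some genes at each level lie beyond it by construction. The share of background genes beyond it was not counted.

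Other probe sets of the members often gave a different picture. Of the members, 22 had several probe sets, and 19 had 30 further probe sets above the filter. Of these 30, 6 were at least 1.5-fold above kdNC in kdLNC and 0 were below it to that extent, against 1 and 0 of the 40 representing ones. Over the 7862 further probe sets of all genes above the filter, these shares were 4.48% and 1.41%. Those of Psmb4 (1.06), Psmd6 (0.85), Psmc6 (0.83), Psmb8 (0.77), Psme4 (0.63) and Psme3 (0.60) were the 6, and at the representing probe set these genes differed by 0.05, -0.11, 0.17, -0.05, 0.05 and -0.11. In oeLNC minus oeNC the same 6 probe sets gave -0.49, -0.39, -0.55, -0.69, -0.28 and -0.45. Thus each was higher in kdLNC and lower in oeLNC, where the representing probe sets of Psmb4, Psmd6, Psmc6, Psmb8 and Psme4 were higher in oeLNC. Those of Psmc6, Psmb8, Psme4 and Psme3 were much dimmer, with mean levels of 6.06, 5.73, 4.52 and 4.89. The representing probe sets of these genes had means of 9.74, 11.11, 8.76 and 7.36.

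**Figure D4:**
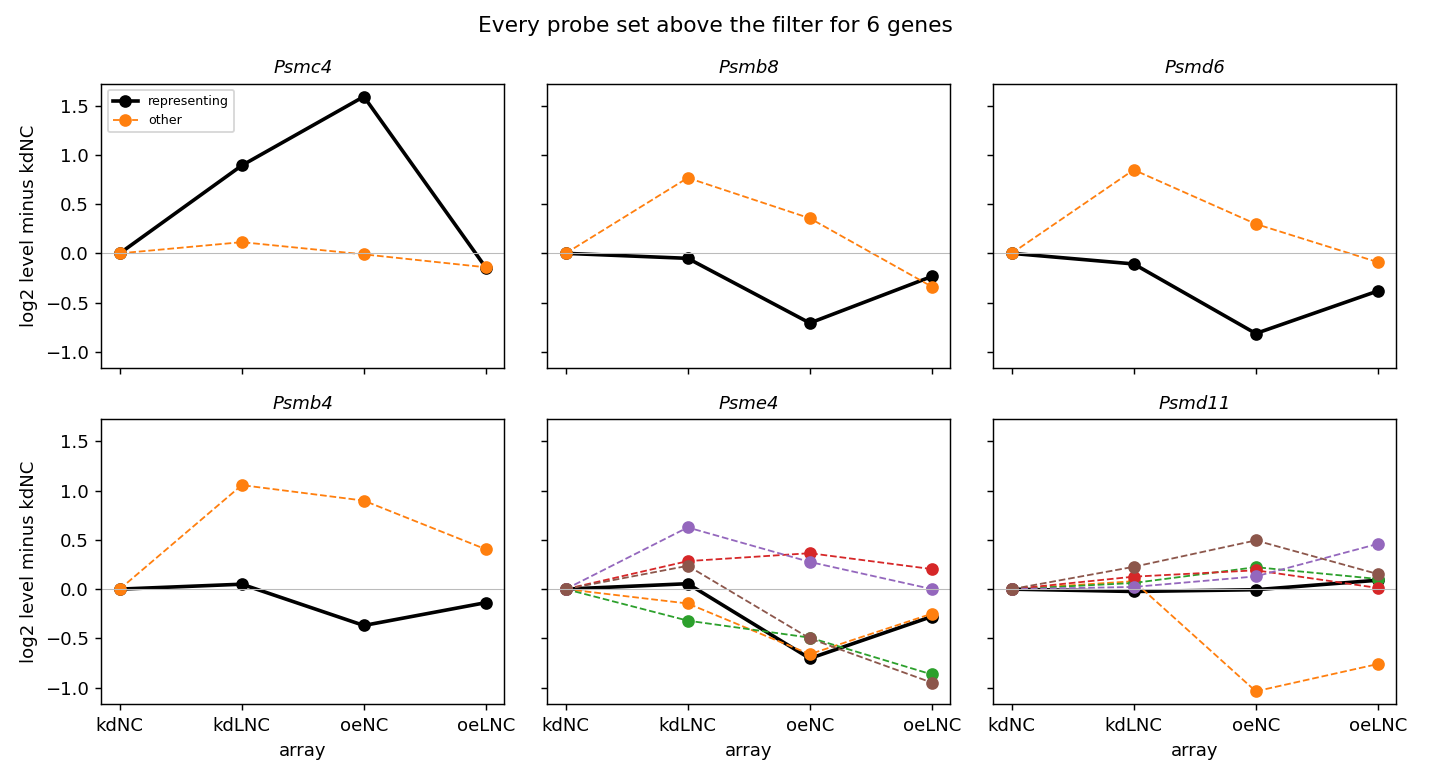
Level relative to kdNC (y axis, log2 level minus that of kdNC) on each array (x axis) for every probe set above the filter of 6 genes. The black line is the representing probe set and dashed lines are the others; lines join the values of 1 probe set. For Psmc4 only the representing probe set peaks on oeNC (1.59), while for Psmb8, Psmd6 and Psmb4 the second probe set is highest in kdLNC (0.77, 0.85 and 1.06).

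Higher in kdLNC and lower in oeLNC were 17 of the 30 further probe sets of members (56.7%), and 30% of 7862 further probe sets of all genes. Of the representing probe sets, 13 of 40 (32.5%) had these signs, as had 23.9% of those of the background genes. The probe sets for bacterial control RNAs moved in part the same way. In kdNC, kdLNC, oeNC and oeLNC the Dap means were 6.44, 6.73, 7.07 and 6.50, and the Lys means 4.51, 4.62, 4.99 and 4.22. The Phe means were 3.82, 3.89, 4.12 and 3.62, and the Thr means of 5.15, 4.97, 5.36 and 5.03 were not higher in kdLNC. The Phe means lay below the filter of 4.20, and the Lys means were not far above it. The log2 ratio of the 3′ to the 5′ actin probe set, a measure of RNA quality, was 1.61 in kdNC and 1.96 to 1.97 on the other arrays, and that for Gapdh was 0.51, 0.69, 0.53 and 0.65. Their part in the probe set differences was not tested. Disagreement of at least 1.2-fold on both sides of 0 was found for 3 of the 22 members in the knockdown pair (Psmd7, Psme3 and Psme4), 8 in the overexpression pair (Psmb8, Psmd4, Psmd6, Psmd7, Psmd9, Psmd11, Psmd13 and Psme4) and 6 between the control arrays (Psmb4, Psmb8, Psmd6, Psmd11, Psmd13 and Psme4). Over probe sets above the filter alone, these counts were 1, 6 and 5. The share of all genes with several probe sets that disagree in this way was not counted. For Psmd11, a scaffold subunit with 8 probe sets, the differences in oeNC minus kdNC ran from -1.04 to 0.49, with -0.01 at the representing one. Psmb10, Psmb9, Psmb5, Psmb6 and Psmb7 have 1 probe set each, so their values have no such check.

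Genes that act around the proteasome were read in the same way, from lists of named pathways. The assembly factors and the inhibitor Psmf1 gave 6 measured genes. Of these, 1 was at least 1.5-fold lower in oeNC than in kdNC (12.2% of background genes were), Psmg3, an assembly chaperone, at -0.77. None passed this limit in the other comparisons. Psmg4 was at -0.54 and Pomp, the maturation factor of the core, at -0.40 in oeNC minus kdNC, and at 0.21 and 0.24 in oeLNC minus oeNC. Psmg2 was at 0.46 in kdLNC minus kdNC (0.44 at its second probe set) and at -0.44 (-0.14) in oeLNC minus oeNC. Psmg1 (-0.38) and Psmf1 (-0.15) were also below 0 in oeLNC minus oeNC. The median of the list was -0.37 between the control arrays, -0.01 in the knockdown pair and 0.03 in the overexpression pair.

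Of 9 genes that supply peptides to MHC class I or form it, 2 were at least 1.5-fold lower in oeNC than in kdNC. Of the background genes, 12.2% were. The 2 were Tapbpl (-1.02), an editor of the peptide cargo, and Tap2 (-0.59), a chain of the peptide transporter. Tap2 lay just past the limit and was short of it under each of the 3 rescalings, at -0.55 to -0.53. All 9 were above 0 in oeLNC minus oeNC (8 after median centring), where 5331 of the 11345 background genes were, though none reached 1.5-fold. The highest was Tapbpl at 0.58, which passed 1.5-fold after quantile normalization and loess (0.66 in both). The list medians were -0.40 between the control arrays, 0.25 in the overexpression pair and 0.02 in the knockdown pair. Tap1, the other chain of the transporter and the neighbour of Psmb9, was at -0.02, 0.13 and 0.04. Erap1 was at -0.48, 0.26 and 0.20, and Nlrc5, the activator of MHC class I genes, at -0.48, 0.30 and -0.04. B2m, H2-K1 and H2-D1 lay at 12.74 or above on all arrays, bright but below S100a8 and S100a9, each with a mean level of 13.38.

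The regulators of the interferon pathway did not run the same way. Of 7 measured genes, 3 were at least 1.5-fold higher in oeNC than in kdNC (Irf9 at 0.86, Ifngr2 at 0.71 and Ifngr1 at 0.60). Socs1, a brake on interferon signalling, was lower, at -0.98. Of the background genes, 9.09% were higher and 12.2% lower. In oeLNC minus oeNC, Socs1 was higher (1.13), and Irf9 (-0.63) and Irf8 (-0.59) were lower by at least 1.5-fold. The background shares there were 3.23% higher and 5.26% lower. Neither Irf9 nor Irf8 passed 1.5-fold after quantile normalization (-0.56 and -0.54), and Irf9 but not Irf8 did after loess (-0.60 and -0.55). No gene of this list passed 1.5-fold in the knockdown pair.

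The transcription factors of proteasome genes were split. Nfe2l1, the factor that raises proteasome genes when the proteasome is blocked, had levels of 8.97 in kdNC and 8.69 in kdLNC, and 8.29 in oeNC and 8.79 in oeLNC, lowest in oeNC by 0.68 against kdNC. Nfe2l2, of the same family, had levels of 9.95, 9.91, 10.995 and 10.51, with oeNC higher than kdNC by 1.04, but its second, dimmer probe set gave -1.15. Maff, a partner of both, was higher in oeNC by 0.62. In the other comparisons no factor of this list reached 1.5-fold.

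Of the proteasome-associated proteins 8 were measured and of the ubiquitin and delivery genes 4. Each list had 1 gene at least 1.5-fold higher in kdLNC than in kdNC (2.25% of background genes) and none lower (1.84%). Usp14, a deubiquitinase of the proteasome, was 0.59 higher, just past the limit. Its dimmer probe sets gave 0.31, -0.11 and 0.16. Ubqln2, a shuttle that brings ubiquitinated proteins, was 0.61 higher. In oeNC minus kdNC, Zfand2a, an arsenite- and heat-induced protein that binds the proteasome, was at 1.0 and Ubqln1 at -0.89 (0.99 at its second probe set). Of 10 heat-shock genes, 6 were at least 1.5-fold higher in oeNC than in kdNC (9.09% of background genes) and 1, Dnajb1 (-0.67), lower (12.2%). The 6 were led by the chaperone genes Hspa1b (4.53), Hspa1a (3.94) and Hsph1 (1.95). In oeLNC minus oeNC 4 of the 10 were at least 1.5-fold lower (5.26% of background genes), among them Hspa1b and Hspa1a at -1.46 and -1.45. In the knockdown pair Hspa1a was lower, at -0.77.

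**Figure D5:**
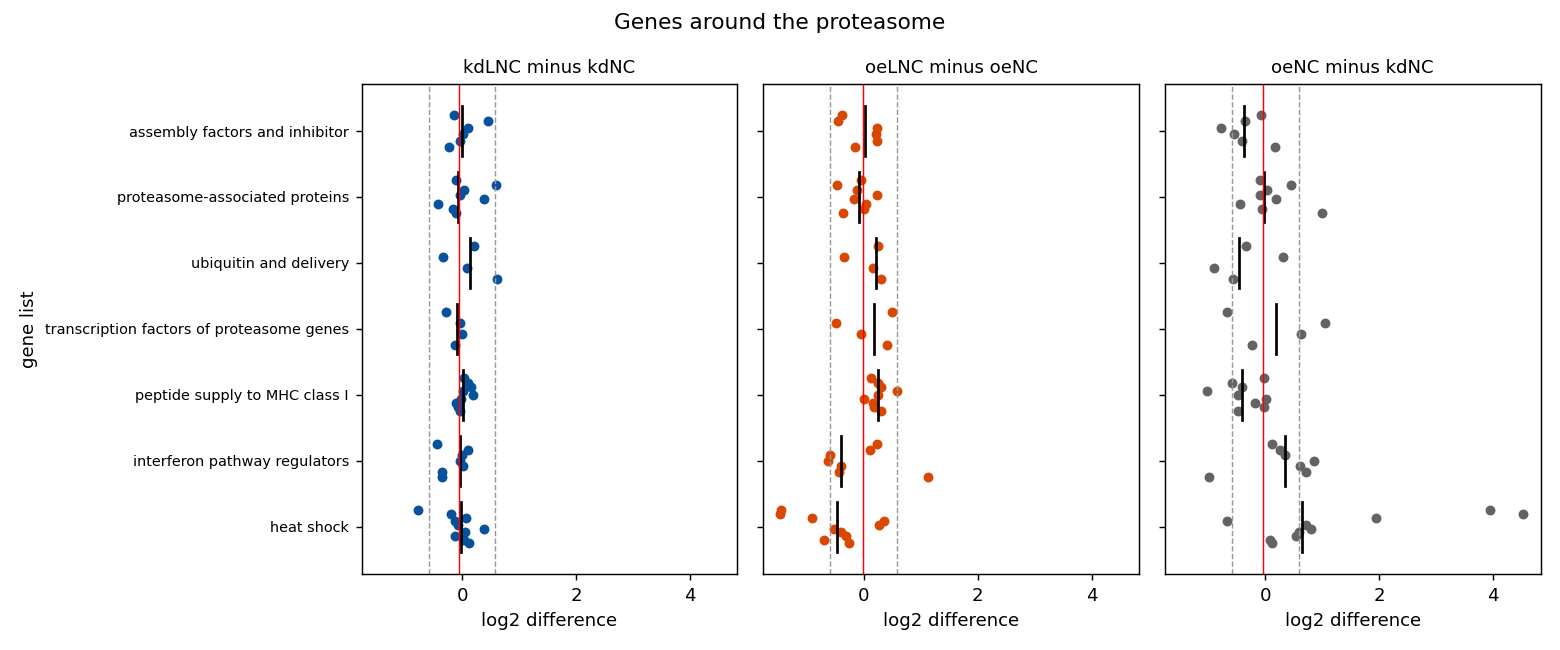
Log2 differences (x axis) of the genes in 7 lists around the proteasome (y axis) in the knockdown pair, the overexpression pair and between the control arrays. Points are genes, black bars are list medians, dashed lines mark 1.5-fold and the red line is the median of the background genes. Heat-shock genes reach 4.53 between the control arrays, and the MHC class I list has a median of -0.40 there and 0.25 in oeLNC minus oeNC.

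Marker genes of other cell types also differed between the arrays. The MDSC genes S100a8, S100a9, Itgam and Cd33 were above the filter, with summed intensities of 21389 to 23468, and Ly6g, Ly6c1 and Ly6c2 are not analysed here. Of 7 neutrophil genes, 5 lay at least 2-fold below kdNC in kdLNC, as did 40 of the 11345 background genes. The 7 summed to 17805 in kdLNC and 25904 to 27999 on the other arrays. Of 4 B cell genes, 3 were at least 2-fold lower in oeNC than in kdNC, as were 449 of the 11345 background genes. The 4 summed to 1423 in oeNC and 1372 in oeLNC against 2838 in kdNC and 2988 in kdLNC. The 5 T and NK cell genes summed to 334 in oeNC, 457 in oeLNC, 737 in kdNC and 688 in kdLNC. This is the array order of Psmb10, and of Psmb8 at its representing probe set, but of the 5 genes Gzma alone had it. In oeNC minus kdNC, Gzma was at -1.66 and Nkg7 at -1.03, while Cd3e, Cd8a and Cd3d were at -0.16, -0.04 and 0.03. The 6 proliferation genes summed to 3908, 3578, 5204 and 4758 in oeNC, oeLNC, kdNC and kdLNC. The 7 dendritic cell and macrophage genes, of which C1qa was below the filter, summed to 2362, 2111, 2676 and 2900, the 5 monocyte genes to 6497, 6960, 6134 and 6034, the 4 eosinophil genes to 1269, 1177, 2637 and 1386, and the 3 erythroid genes to 109, 102, 101 and 85, with Hba-a1 below the filter. Their part in the differences of proteasome genes was not tested, and in bulk samples fewer cells of a type and less RNA per cell cannot be told apart.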

How the data were processed

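Total RNA of 4 cultures of mouse MDSCs, 1 per group, was hybridised to Affymetrix arrays. The authors deposited 1 intensity per probe set and array on a linear scale. The submitters' processing notes list RMA without a version. RMA corrects background, normalizes between arrays by quantiles and summarises probes, which narrows differences of dim probe sets. Levels were log2 of the deposited intensities. Of 45101 probe sets, those with 1 symbol in the platform annotation (34958) were used, and those with several (932) or no symbol (9211) were not. Precision is limited by the number of arrays, and no background estimate was at hand. Differences were taken within the pairs and between the control arrays with Python 3.11.15, numpy 2.4.6 and pandas 2.3.3, and loess with statsmodels 0.14.6. The methods' limma test was not possible with 1 array per group. The calculation was tested on simulated data. Groups came from the labels.

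The members, lists and tests were chosen with earlier results of these data known. Named are all catalytic, immunoproteasome and activator genes, members at least 1.5-fold different or with probe sets at least 1.2-fold apart on both sides of 0, the highest and lowest member, and up to 3 genes of each list with the largest differences. Psmd14 and several further list genes were named after their values were seen. Promoter windows came from RefSeq (GRCm38.p6). Alternatives were median centring, quantile normalization, loess, the mean over probe sets, leaving out probe sets with the suffixes _x_at, _s_at and _a_at, the mean of both controls, a pseudocount of 16, other filters and 2-fold.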

Additional observations from a re-analysis of the deposited data

How the results depend on the processing

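No paired analysis was possible because there was only 1 array per group, and none could be left out. Median centring, quantile normalization, loess and a pseudocount of 16 kept every member called in its direction, and added only Psmb5 between the control arrays under quantile normalization; no scaling moved the median of all background genes by over 0.1. The median of the members in oeLNC minus oeNC turned to -0.01 under median centring and -0.03 with the mean of both controls. With both control arrays averaged, 0 members were at least 1.5-fold higher in kdLNC, since Psmc4 was not. With the probe sets of each gene averaged, Psmc6 replaced Psmc4 in the knockdown pair, and 1 member, Psmb10, was lower in oeNC than in kdNC. At 2-fold, 0 members were higher in kdLNC and 1 was lower in oeNC than in kdNC. Without probe sets ending in _x_at, _s_at or _a_at, 36 members were left and Psmc4 was read at its other probe set (-0.010 in oeNC minus kdNC). Psmc6 was then the member called higher in kdLNC and called lower in oeLNC, and 1 member, Psmd13, was higher in oeLNC, but both were then read at probe sets below the filter (means of 2.74 and 3.83).

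Both further alternatives were chosen after seeing the data. At the second-brightest probe set above the filter, which 19 members have, 5 were higher in kdLNC, 2 were higher and 2 lower in oeNC than in kdNC, the median in oeLNC minus oeNC was -0.13, and in oeNC minus kdNC Psmb8, Psmd6 and Psmc4 turned to 0.36, 0.30 and -0.010. With kdNC as the control of oeLNC, 0 members were at least 1.5-fold lower and the median was -0.11. The cause of these shifts was not tested. Of 228 alternative medians of subunit groups, 53 moved by over 0.1. Of 921 alternative values for single members, 876 moved by less than the yardstick, 41 by more and 4 reversed. Changes of sign smaller than the yardstick are counted among the 876. Psma5 in kdLNC minus kdNC, for example, was at 0.26, and at -0.15 without probe sets ending in _x_at, _s_at or _a_at. The 20 members with 1 probe set cannot change when probe sets are averaged. These counts thus do not show that single values are stable.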
